A study of Rattus norvegicus with 6 samples.

Results

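Genes of secreted immune signals and of their receptors were examined in the vestibular epithelium of the rat, the inner ear tissue in which hair cells (HCs) and supporting cells sense head movement. Members were chosen by symbol: Ccl, Cxcl, Ccr, Cxcr, Ackr, Il, Tnfsf or Tnfrsf followed by a number, plus Tnf, Cx3cl1 and Csf1. This gave 162 of the 32883 genes in the table. They were 33 chemokine ligands, 19 chemokine receptors, 40 interleukin ligands and antagonists (with Csf1 counted among them), 40 interleukin receptor chains, 12 tumour necrosis factor (TNF) family ligands, 17 TNF family receptors and Il4i1, an amino acid oxidase that shares only the prefix. RNA-seq counts came from 6 adult male Long-Evans rats that were 8 to 9 weeks old on arrival. In the control group, 3 rats had plain drinking water. In the IDPN-4wk group, 3 rats drank water containing 20 mM 3,3'-iminodipropionitrile (IDPN), a nitrile toxic to HCs, over 4 weeks. No genetic alteration is given for either group. Each library was made from 1 rat, with its 2 utricles and 6 cristae combined, and held from 13358678 to 18561991 counts. Because the tissue was not sorted, a lower level in bulk RNA can come from fewer cells of a type or from less RNA per cell, which cannot be told apart here.

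Chemokines are small secreted proteins that guide leukocytes by acting on G protein-coupled receptors, and atypical receptors such as Ackr3 bind and clear them. Interleukins act on receptors built from a specific chain and a shared signalling chain, and some receptors and binding proteins are decoys that hold a cytokine without signalling. TNF family ligands act on receptors that can start either cell death or survival through NF-kB. In the inner ear, resident macrophages lie under and within the sensory epithelium and depend on the Csf1 receptor, whose ligands are Csf1 and Il34.

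No count was found for 39 members in any library, among them Il6, Il1a, Il2, Il3, Il4, Il13, Il17a and Il17f. Where a library has a count of 0, up to 3 counts are still possible, or 0.155 to 0.216 CPM, the counts scaled to library size with TMM factors. Another 57 members had counts but too few for the test, with at most 29 in any library. The remaining 66 were tested with edgeR over 14352 genes, and a gene was called when its Benjamini-Hochberg adjusted p (Padj) was under 0.05 and its fold change over 1.5. Calls were made for 17 of the 66 (25.8%), against 9.71% of all genes tested. They were 9 higher members (3.09% of all genes were called higher) and 8 lower members (6.62% of all genes). Libraries of the groups did not overlap in 30 tested members, 18 higher and 12 lower, where 37.8% of all genes tested did not overlap. The median log2-Fold change (IDPN-4wk against control) was 0.20 over the 66 members and 0.02 over all genes tested.

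The balance of higher and lower calls moved with the scaling, and no called member reversed. When libraries were scaled by their size alone, the median of all genes tested moved to 0.13, and 14 members were called higher and 6 lower, so that 70.0% of the calls were higher against 52.9% with TMM. That scaling called 5.31% of all genes higher and 5.43% lower. Upper quartile scaling gave 12 higher and 6 lower members, beside 3.62% and 6.24% of all genes. The library numbered here as IDPN-4wk replicate 3 had the largest part in the count of higher members. Without it, 15 were called higher and 9 lower, beside 3.34% and 7.53% of all genes. These counts include Cxcl13, Tnfsf18 and Il2rb, which were under the filter in the fit of all libraries. Without control replicate 3, 9 members were called higher and 5 lower, beside 2.45% and 5.63%. With glmTreat, which tests against the fold of 1.5 itself, 5 were called higher and 4 lower, beside 0.690% and 2.47% of all genes, and the calls that ended included those of Il1r2, Il3ra, Il16, Tnfrsf1a, Tnfrsf9, Tnfrsf12a and Tnfrsf21.

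**Figure D1:**
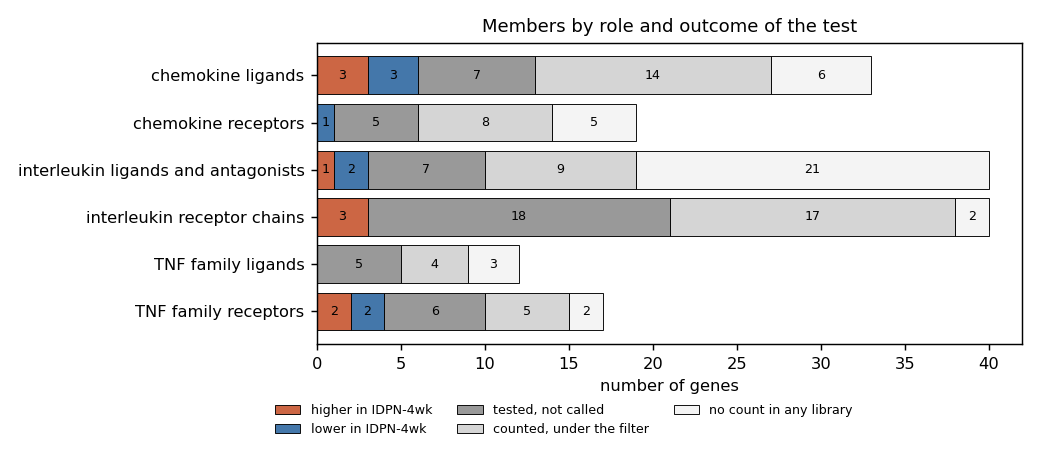
Number of members in each role class (x axis, genes) by the outcome of the test of IDPN-4wk against control (n = 3 each): higher, lower, tested and not called, counted but under the filter, and without a count. Chemokine ligands held 3 higher and 3 lower members of 13 tested, interleukin receptor chains 3 higher of 21, and 21 of the 40 interleukin ligands and antagonists had no count.

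Defining genes of the epithelium were present in every library. Myo7a, a motor protein of HCs, averaged 252 CPM in control rats and 162 CPM in exposed rats and fell (log2-Fold change -0.64, edgeR Padj 0.00109), and the supporting cell factor Sox2 was at 9.22 and 7.63 CPM. HC markers were called lower in 5 of 10 (median log2-Fold change -0.59) and supporting cell markers in 3 of 10 (median -0.33). Of all genes tested, 6.62% were called lower and 3.09% higher. Among 14 macrophage markers, Cd14 (0.69) and C1qb (0.71) were called higher and none lower. Of the 14, 8 lay above 0 and 6 below, from -1.06 to 0.71, with a median of 0.21. Their summed level was from 141 to 191 CPM in control and from 134 to 244 CPM in IDPN-4wk libraries. The marker that macrophages share with other leukocytes, Ptprc, was at 2.73 and 2.63 CPM.

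Markers of dendritic cells and MHC class II were lower in exposed rats. Their summed level was from 29.8 to 60.0 CPM in control and from 6.69 to 7.69 CPM in IDPN-4wk libraries, and 4 of the 5 tested were called lower. Cd74, which accompanies MHC class II molecules, had the smallest Padj of the list (log2-Fold change -2.70, edgeR Padj 4.85e-05). The dendritic cell receptor Flt3 had at most 3 counts in any library. B cell markers were all under the filter, and summed to at most 0.710 CPM in a control and 0.386 CPM in an exposed rat. Of 9 T and NK cell markers, Cd3g (0.73, edgeR Padj 0.0971) and Lck (0.65, edgeR Padj 0.102) were tested and not called, both at an unadjusted p under 0.05, and Klrb1 had no count. The summed level of this list was from 6.78 to 11.4 CPM in control and from 11.6 to 16.1 CPM in IDPN-4wk libraries. There was no overlap, but the gap was narrow. Of the 9 markers, 7 had under 10 counts in every library, and the groups were apart in 1 of the 2 tested. Neutrophil granule genes Elane, Mpo, Ngp and Camp had at most 9 counts in any library. The summed level of the neutrophil list was from 630 to 747 CPM in control and from 442 to 492 CPM in IDPN-4wk libraries, nearly all of it Lcn2, which epithelia also express. Lcn2 (-0.58, edgeR Padj 0.000931) was just under the fold threshold, and Csf3r, a receptor of neutrophils, was 0.77 (edgeR Padj 0.237), with no overlap in either gene. Other marker lists had at most 1 call in each direction. Lyve1, placed in the lymphatic endothelium list, rose (1.59), and the 3 other genes tested of that list were not called. Which cells the counts of Lyve1 came from was not tested. Kcnq1 of dark cells fell (-1.87), and Pmp22 of Schwann cells fell (-0.59). Stroma had 1 higher and 1 lower gene. Blood endothelium had none called in edgeR, with 2 of 6 at an unadjusted p under 0.05, which 33.1% of all genes tested had.

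**Figure D2:**
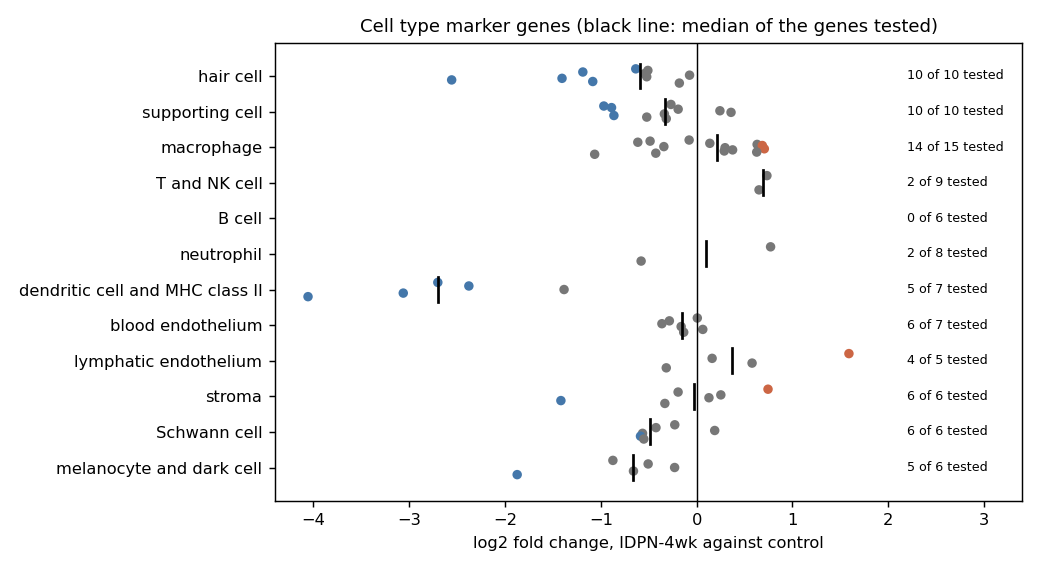
Log2-Fold change (x axis) of the marker genes of 12 cell types, each point a gene tested (none for B cells) and coloured when past both thresholds, with the median of a list as a black line. Macrophage markers lie around a median of 0.21, and dendritic cell and MHC class II markers lie below 0 with a median of -2.70.

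Among the chemokine ligands, Cxcl10 and Cxcl11 rose. Both are ligands of Cxcr3, a receptor of activated T and NK cells, and both are known as targets of interferon and NF-kB. Cxcl11 (ENSRNOG00000022298) was at 0.775, 0.839 and 1.06 CPM in the control libraries and at 6.25, 3.92 and 4.57 CPM in the IDPN-4wk libraries. All exposed libraries were above all controls. The mean went from 0.892 ± 0.151 to 4.92 ± 1.20 CPM (SD, 3 rats per group; log2-Fold change 2.45 with SE 0.32, edgeR Padj 0.000519), a 5.46-fold rise from counts of 12 to 15 per control library to counts of 71 to 87. Cxcl10 (ENSRNOG00000022256) was at 3.23, 3.21 and 3.26 CPM in control and at 8.70, 6.09 and 9.79 CPM in IDPN-4wk libraries. The control libraries were nearly equal, and the groups did not overlap (log2-Fold change 1.33 with SE 0.24, edgeR Padj 0.00302; 2.52-fold). Cxcl9, the remaining ligand of this receptor, had overlapping libraries, from 4.32 to 7.69 CPM in control and from 6.81 to 10.8 CPM in IDPN-4wk, and did not pass the test (log2-Fold change 0.43, 95% interval from -0.14 to 0.99, edgeR Padj 0.279). Cxcr3 itself had 2, 6 and 6 counts in control and 0, 2 and 12 in IDPN-4wk libraries, too few for the test. The summed T and NK cell markers did not overlap between the groups, but no marker of that list was called, as given above. Their part in these results was not tested. Art3 overlaps Cxcl10 and Cxcl11 in the RefSeq gene table, and strand was not kept. Art3 averaged 79.8 CPM in control and 70.7 CPM in exposed rats (log2-Fold change -0.18, edgeR Padj 0.301).

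The start regions of these 3 ligands are shown because 2 of them rose and Cxcl9 did not pass the test. Each is 250 bases before to 50 after the start, 5′ to 3′, on the plus strand of chromosome 14 in RefSeq build GRCr8: chr14:16006916-16007215 for Cxcl9, chr14:15988816-15989115 for Cxcl10 and chr14:15973478-15973777 for Cxcl11. Capitals mark matches, on either strand, to an interferon-stimulated response element (ISRE, GAAA and again GAAA after any 2 bases), a kappaB site (GGGAA and TTCC with any 1 base between) or a STAT site (GAS, TTC and GAA with any 3 bases between).
Cxcl9: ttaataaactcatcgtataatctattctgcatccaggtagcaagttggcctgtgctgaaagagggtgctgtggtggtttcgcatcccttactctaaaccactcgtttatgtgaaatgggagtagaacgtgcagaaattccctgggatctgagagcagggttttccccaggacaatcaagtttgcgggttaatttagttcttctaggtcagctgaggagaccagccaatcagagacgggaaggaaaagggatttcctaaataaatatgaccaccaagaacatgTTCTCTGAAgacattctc
Cxcl10: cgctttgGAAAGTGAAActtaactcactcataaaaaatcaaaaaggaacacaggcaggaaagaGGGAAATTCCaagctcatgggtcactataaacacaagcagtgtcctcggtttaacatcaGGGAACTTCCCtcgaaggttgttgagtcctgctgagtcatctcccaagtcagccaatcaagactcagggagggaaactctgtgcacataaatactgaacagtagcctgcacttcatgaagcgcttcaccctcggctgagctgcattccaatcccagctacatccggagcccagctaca
Cxcl11: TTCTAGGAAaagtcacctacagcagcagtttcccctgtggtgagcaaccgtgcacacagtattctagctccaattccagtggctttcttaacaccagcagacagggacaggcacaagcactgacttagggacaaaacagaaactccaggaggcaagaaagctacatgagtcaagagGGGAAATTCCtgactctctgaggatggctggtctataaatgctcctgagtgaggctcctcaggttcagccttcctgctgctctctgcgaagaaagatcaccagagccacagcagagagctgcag
The Cxcl10 window held 1 ISRE match and 3 kappaB matches, of which 2 overlap, the Cxcl11 window 1 kappaB and 1 GAS match, and the Cxcl9 window 1 GAS match. Start regions were found for 124 members and for 27457 genes in all. A kappaB match was present in 5 of the 124 (4.03%) and in 0.408% of all start regions, an ISRE match in 13 (10.5%) and in 4.12%, and a GAS match in 15 (12.1%) and in 9.39%. Of the 14 called members with a start region, Cxcl10 and Il18bp held an ISRE match, Cxcl10 and Cxcl11 a kappaB match, and Ccl24, Cxcl11 and Tnfrsf12a a GAS match.

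Cxcl17 (ENSRNOG00000037814), a chemokine of mucosal epithelia, had 4, 0 and 1 counts in control and 45, 87 and 13 counts in IDPN-4wk libraries. All exposed libraries were higher, and replicate 3 was the lowest of them. The gene reached the minimum count of the filter in exposed libraries alone, so a gene that passed in this way had to differ. The group totals of 5 and 145 counts gave a 26.1-fold ratio with a 95% counting interval from 10.9 to 81.5 (log2-Fold change 4.57 with SE 0.84, edgeR Padj 0.00373). This size rests on the 5 control counts, of which 4 were in replicate 1. Without that library the log2-Fold change was 6.06 (edgeR Padj 0.00591), and it was 4.03 without control replicate 2.

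Cxcl12 (ENSRNOG00000013589), a constitutive chemokine of stromal and other tissue cells, fell. It was at 78.2, 75.9 and 70.2 CPM in control and at 25.3, 22.9 and 19.8 CPM in IDPN-4wk libraries. Every exposed library was far under every control. The mean went from 74.8 ± 4.11 to 22.7 ± 2.78 CPM (SD, 3 rats per group; log2-Fold change -1.72 with SE 0.10, edgeR Padj 8.48e-06), 3.30-fold lower. The signalling receptor Cxcr4 was at 1.68, 2.80 and 2.12 CPM in control and at 2.01, 1.13 and 1.87 CPM in IDPN-4wk libraries, with a log2-Fold change of -0.41 and a 95% interval from -1.21 to 0.40. The atypical receptor Ackr3, which takes up Cxcl12 and Cxcl11, was at 79.1, 73.7 and 73.8 CPM in control and at 86.6, 75.6 and 81.8 CPM in IDPN-4wk libraries, with an interval from -0.07 to 0.28. Neither receptor passed the test, and both intervals leave out a change as large as that of the ligand.

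Cxcl14 (ENSRNOG00000011984), a chemokine of epithelia, fell as well. It was at 83.8, 110 and 93.8 CPM in control and at 54.1, 39.5 and 48.8 CPM in IDPN-4wk libraries, 2.03-fold lower (log2-Fold change -1.02 with SE 0.13, edgeR Padj 0.000397), with no overlap. Cxcl16 (ENSRNOG00000026647), a membrane-bound chemokine of Cxcr6, was at 45.5, 48.7 and 48.2 CPM in control and at 72.8, 72.4 and 67.3 CPM in IDPN-4wk libraries. The groups did not overlap and edgeR Padj was 0.000628, but the log2-Fold change of 0.58 lay just under the fold threshold. Library size alone gave 0.69 and upper quartile scaling 0.61, which are past it. Zmynd15, which overlaps Cxcl16, was called higher (0.73). The other chemokine ligands tested and not called were Cx3cl1 (0.60, edgeR Padj 0.0735), Cxcl6 (0.75, edgeR Padj 0.120), Ccl6, Ccl19 and Ccl27, and in all of them the groups overlapped.

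Ccl24 (ENSRNOG00000031162), an eotaxin that draws eosinophils through Ccr3, was at 7.49, 5.73 and 5.73 CPM in control and at 2.44, 0.877 and 1.16 CPM in IDPN-4wk libraries. No exposed library reached the lowest control, and the level fell 4.31-fold (log2-Fold change -2.11 with SE 0.36, edgeR Padj 0.00260). Ccr3 had no count in any library. Ccl24 fell in the same libraries as the dendritic cell and MHC class II markers given above, and their part in the result was not tested.

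Ccl3, Ccl4 and Ccl5, chemokines of macrophages and lymphocytes, had at most 8 counts in any library. Among the chemokine receptors, Ccr10, a receptor of Ccl27 and Ccl28, was at 1.03, 1.05 and 1.27 CPM in control and at 2.88, 2.48 and 1.80 CPM in IDPN-4wk libraries. The groups did not overlap, and edgeR Padj was 0.0513 (log2-Fold change 1.09, SE 0.35). Cntnap1, which overlaps Ccr10, was not called (-0.05). Ackr4 (0.79) and Ccr1 (0.38) were not called, and both had overlapping libraries.

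**Figure D3:**
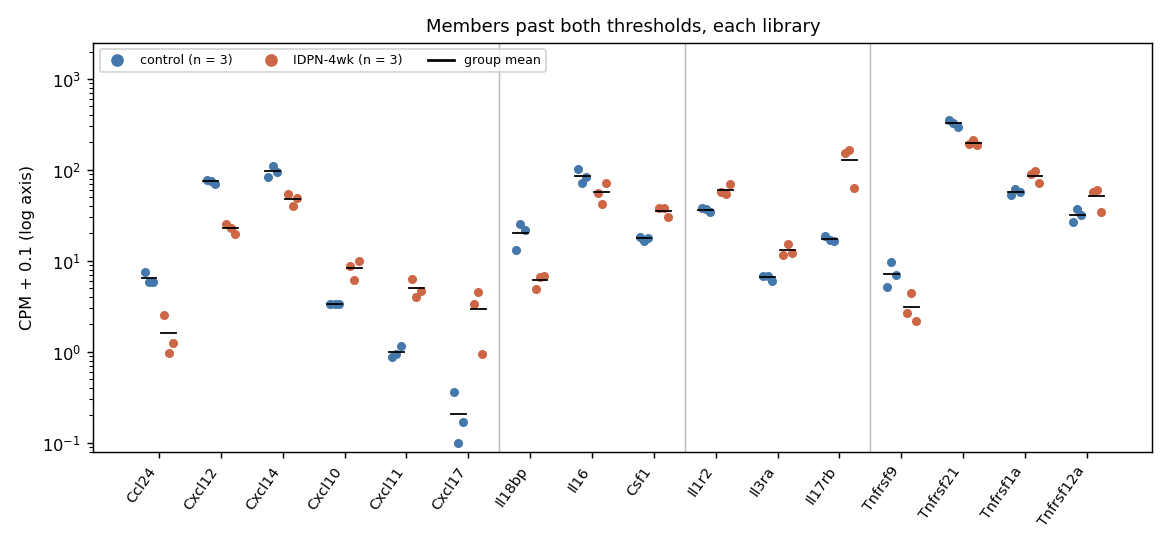
CPM + 0.1 (log axis) of 16 members past both thresholds in each of the 6 libraries, with the group mean as a bar. Groups are apart in 15 of them and overlap in Tnfrsf12a, and the third exposed library of Il17rb and Cxcl17 lies well under the other two.

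Csf1 (ENSRNOG00000018659), the growth factor that maintains macrophages, rose. It was at 18.4, 16.4 and 17.9 CPM in control and at 38.5, 37.7 and 30.3 CPM in IDPN-4wk libraries. Each exposed library was above every control, and the mean went from 17.6 ± 1.03 to 35.5 ± 4.53 CPM (SD, 3 rats per group; log2-Fold change 1.01 with SE 0.12, edgeR Padj 0.000323), 2.02-fold. Il34, the other ligand of the same receptor, was at 22.6, 18.7 and 12.4 CPM in control and at 18.5, 14.6 and 15.7 CPM in IDPN-4wk libraries, and its 95% interval ran from -0.58 to 0.30. The receptor Csf1r was at 53.7, 58.0 and 45.6 CPM in control and at 52.2, 21.0 and 39.9 CPM in IDPN-4wk libraries (log2-Fold change -0.49, edgeR Padj 0.201). The rise of Csf1 thus stood beside overlapping levels of its receptor and of the summed macrophage markers.

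Il18bp (ENSRNOG00000020150), a secreted protein that binds and blocks IL-18, fell from 13.0, 25.2 and 22.0 CPM in control to 4.82, 6.50 and 6.70 CPM in IDPN-4wk libraries. The lowest control lay nearer to the exposed libraries than to the other controls, but the groups did not overlap (log2-Fold change -1.73 with SE 0.24, edgeR Padj 0.000722; 3.32-fold lower). Il18 had 6, 6 and 5 counts in control and 2, 9 and 6 in IDPN-4wk libraries, under the filter. Il16 (ENSRNOG00000011680), the precursor of a chemoattractant that binds CD4, was at 101, 72.5 and 84.1 CPM in control and at 56.0, 41.6 and 71.5 CPM in IDPN-4wk libraries. The highest exposed library nearly reached the lowest control (log2-Fold change -0.61 with SE 0.17, edgeR Padj 0.0326). This call was lost with library size alone (-0.51), with upper quartile scaling (-0.58) and without control replicate 1 or 3 or IDPN-4wk replicate 1 or 2.

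Several interleukins were over 1.5-fold apart and did not pass. Il33, an alarmin kept in the nucleus until cells are damaged, was at 4.71, 3.70 and 2.90 CPM in control and at 6.11, 5.52 and 6.18 CPM in IDPN-4wk libraries (log2-Fold change 0.65 with SE 0.24, edgeR Padj 0.0839), with no overlap. Il23a, which forms IL-23 with Il12b, had 25, 11 and 14 counts in control and 6, 8 and 5 in IDPN-4wk libraries (log2-Fold change -1.52, edgeR Padj 0.0513). Il12a had 11, 11 and 10 counts in control and 1, 5 and 9 in IDPN-4wk libraries (log2-Fold change -1.23, edgeR Padj 0.196), and Il12b, which it needs to form IL-12, had none. The groups were apart in these 3 genes. Il23a and Il12a had few counts, with every exposed library under the minimum count of the filter. Both passed the filter through control libraries alone, so their being apart follows in part from the filter.

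The classical inflammatory cytokines were hardly present. Il6 and Il1a had no count. Il1b had 3, 2 and 21 counts in control and 4, 8 and 6 in IDPN-4wk libraries, and Tnf had 4 counts in control replicate 1 and none in the other 5 libraries. All of them were without a count or under the filter, so no difference in these genes was tested.

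Il17rb (ENSRNOG00000015498) had the largest log2-Fold change among the 21 interleukin receptor chains tested. It encodes the chain that binds IL-25 and IL-17B and signals with Il17ra. Its levels were 18.5, 17.0 and 16.3 CPM in control and 154, 165 and 62.3 CPM in IDPN-4wk libraries, with at most 286 counts per control library and up to 3197 per exposed library. Every exposed library was over 3 times the highest control, and replicate 3 was the lowest of them. The mean rose 7.36-fold, from 17.2 ± 1.12 to 127 ± 56.3 CPM (SD, 3 rats per group; log2-Fold change 2.88 with SE 0.30, edgeR Padj 0.000131), and the log2-Fold change stayed between 2.64 and 3.19 when single libraries were left out. In the RefSeq table, Il17rb overlaps Chdh, a choline dehydrogenase, and Actr8. Chdh was called higher, from 58.0 to 125 CPM (log2-Fold change 1.10 with SE 0.19, edgeR Padj 0.00251), and Actr8 was at 81.7 and 95.7 CPM (0.23, edgeR Padj 0.0474). Reads of overlapping genes were not separated by strand, and the part of Chdh in the count of Il17rb was not tested.

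The partners of Il17rb had smaller log2-Fold changes, and whether they differed from that of Il17rb was not tested. Il17b had 7, 16 and 15 counts in control and 15, 80 and 42 in IDPN-4wk libraries, with overlap (log2-Fold change 1.61 with SE 0.52, edgeR Padj 0.0538). DESeq2 called it higher (1.59, Padj 0.0252), as did library size alone, upper quartile scaling, the fit with no filter and the fit without IDPN-4wk replicate 1. Il25 had 9, 21 and 15 counts in control and 14, 29 and 16 in IDPN-4wk libraries (edgeR Padj 0.788). The shared chain Il17ra was at 50.6, 53.8 and 43.6 CPM in control and at 62.0, 65.0 and 57.2 CPM in IDPN-4wk libraries. It did not overlap and had Padj 0.0441 in edgeR, at a fold of 1.24. The other chains of the family, Il17rc (0.07), Il17rd (0.13) and Il17re (0.22), had overlapping libraries and were not called.

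**Figure D4:**
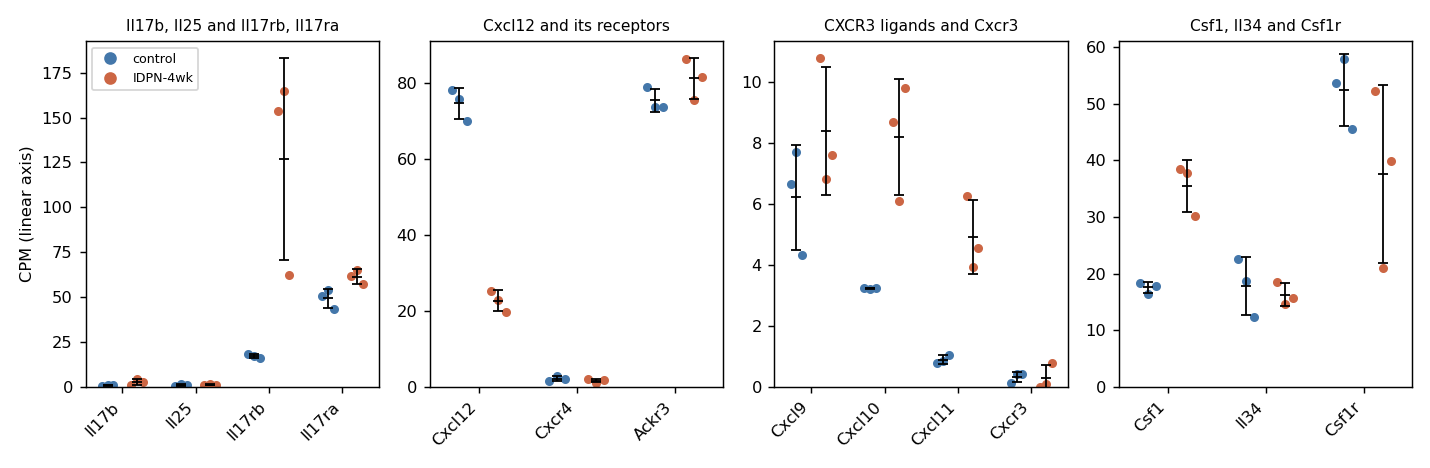
CPM (linear axis, a scale per panel) of 4 groups of ligands and receptors in each library, with the mean and the SD (n = 3 per group). Il17rb, Cxcl10, Cxcl11 and Csf1 are higher and Cxcl12 lower in IDPN-4wk, while Il17b, Il25, Il17ra, Ackr3, Cxcr4, Cxcr3, Cxcl9, Il34 and Csf1r did not pass both thresholds.

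Il1r2 (ENSRNOG00000014378), the decoy receptor that binds IL-1 without signalling, was at 37.6, 36.8 and 34.5 CPM in control and at 57.0, 54.2 and 69.9 CPM in IDPN-4wk libraries. It rose with no overlap (log2-Fold change 0.73 with SE 0.11, edgeR Padj 0.000953; 1.66-fold). The signalling receptor Il1r1 averaged 12.7 ± 3.27 and 11.2 ± 0.883 CPM in these groups (SD, 3 rats per group), with a 95% interval of its log2-Fold change from -0.60 to 0.23. The accessory chain Il1rap was at 80.2, 81.2 and 60.1 CPM in control and at 83.9, 93.8 and 89.4 CPM in IDPN-4wk libraries (0.27, edgeR Padj 0.117).

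Il3ra (ENSRNOG00000001325), the specific chain of the IL-3 receptor, was at 6.78, 6.78 and 5.95 CPM in control and at 11.5, 15.2 and 12.0 CPM in IDPN-4wk libraries, and rose 1.99-fold (log2-Fold change 0.99 with SE 0.17, edgeR Padj 0.00289). Il3 had no count. The shared chain Csf2rb was at 18.7, 10.6 and 7.22 CPM in control and at 7.40, 10.0 and 10.3 CPM in IDPN-4wk libraries (-0.40, edgeR Padj 0.385). A higher level was thus measured for the specific chain, and overlapping levels for the shared one.

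Il10ra, the specific chain of the IL-10 receptor on leukocytes, was at 1.68, 3.63 and 2.26 CPM in control and at 1.51, 0.413 and 1.09 CPM in IDPN-4wk libraries (log2-Fold change -1.36, edgeR Padj 0.0757). Its groups did not overlap, and its partner Il10rb was at 17.7 ± 4.60 and 25.3 ± 7.83 CPM (SD, 3 rats per group; 0.52, edgeR Padj 0.150). Il6st, the signalling chain gp130 of the IL-6 family, was at 247, 234 and 210 CPM in control and at 283, 257 and 240 CPM in IDPN-4wk libraries (0.17, edgeR Padj 0.191). Il11ra1 was at 166 ± 6.33 and 166 ± 1.96 CPM (SD, 3 rats per group), with an interval from -0.15 to 0.14. Il27ra had no overlap and a lower mean, 10.5 against 7.56 CPM (-0.47, edgeR Padj 0.0961). No interleukin receptor chain was called lower in edgeR, with TMM or the 3 other scalings, or in DESeq2, but Il27ra was called lower when IDPN-4wk replicate 3 was left out and Il1rapl1 when no filter was used, and 8 of the 21 had an unadjusted p under 0.05 in either direction, near the 33.1% of all genes.

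TNF receptors went in both directions. Tnfrsf21 (ENSRNOG00000011517), death receptor 6, which is expressed by neurons among other cells, was at 352, 331 and 295 CPM in control and at 194, 215 and 188 CPM in IDPN-4wk libraries. It fell 1.64-fold, with no overlap (log2-Fold change -0.71 with SE 0.09, edgeR Padj 0.000306). Tnfrsf9 (ENSRNOG00000036942), a costimulatory receptor of lymphocytes, was at 5.04, 9.51 and 6.94 CPM in control and at 2.59, 4.33 and 2.06 CPM in IDPN-4wk libraries (log2-Fold change -1.24 with SE 0.33, edgeR Padj 0.0230). Its call was lost when control replicate 2 or 3 or IDPN-4wk replicate 1 or 3 was left out, with Padj up to 0.0979. Its ligand Tnfsf9 had 4, 7 and 4 counts in control and 6, 29 and 10 in IDPN-4wk libraries. It was under the filter, and its groups overlapped. The exposed total was 2.70-fold higher with a counting interval from 1.48 to 5.21, and IDPN-4wk replicate 2 gave 29 of its 45 counts. That interval covers counting error only and not the spread between rats.

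Tnfrsf1a (ENSRNOG00000031312), the TNF receptor found on most cells, was at 52.9, 61.6 and 56.4 CPM in control and at 89.7, 97.9 and 70.8 CPM in IDPN-4wk libraries. It rose 1.51-fold (log2-Fold change 0.60 with SE 0.12, edgeR Padj 0.00524), just over the fold threshold, and fell under it without control replicate 1 or IDPN-4wk replicate 1 or 2. Tnfrsf1b, the TNF receptor of leukocytes, was at 2.70 ± 0.301 and 3.20 ± 1.06 CPM (SD, 3 rats per group; 0.23, edgeR Padj 0.656). Tnfrsf12a (ENSRNOG00000003546), an injury-induced receptor also known as Fn14, was at 26.7, 36.8 and 31.6 CPM in control and at 57.4, 60.7 and 34.6 CPM in IDPN-4wk libraries. It was the only called member with overlapping libraries, since IDPN-4wk replicate 3 lay within the controls (log2-Fold change 0.69 with SE 0.19, edgeR Padj 0.0296). Leaving out control replicate 1 or 3 or IDPN-4wk replicate 1 or 2 ended its call, and it was larger (0.89) when IDPN-4wk replicate 3 was left out.

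The ligand of Tnfrsf12a, Tnfsf12, was at 20.2, 19.0 and 17.9 CPM in control and at 23.0, 22.7 and 24.9 CPM in IDPN-4wk libraries (0.30, edgeR Padj 0.0826). Tnfsf13, a survival factor of B and plasma cells, was at 166, 157 and 166 CPM in control and at 180, 197 and 196 CPM in IDPN-4wk libraries, with Padj 0.0440 in edgeR at a fold of 1.17. Tnfsf13b was at 1.15 ± 0.473 and 1.99 ± 0.0639 CPM (SD, 3 rats per group; 0.78, edgeR Padj 0.180), and Tnfsf10, the death ligand TRAIL, was at 15.6 ± 2.19 and 12.6 ± 3.73 CPM (SD, 3 rats per group; -0.31, edgeR Padj 0.325). None of the 5 TNF ligands tested was called in edgeR, and 2 had an unadjusted p under 0.05, which 33.1% of all genes had. DESeq2 called none either. Tnfrsf11b, osteoprotegerin, a decoy for the ligands Tnfsf10 and Tnfsf11, was at 231, 211 and 203 CPM in control and at 325, 264 and 255 CPM in IDPN-4wk libraries, and its Padj was 0.0199 in edgeR at a fold of 1.31. Tnfrsf19 was at 179 ± 23.3 and 212 ± 20.6 CPM (SD, 3 rats per group; 0.24, edgeR Padj 0.131).

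**Figure D5:**
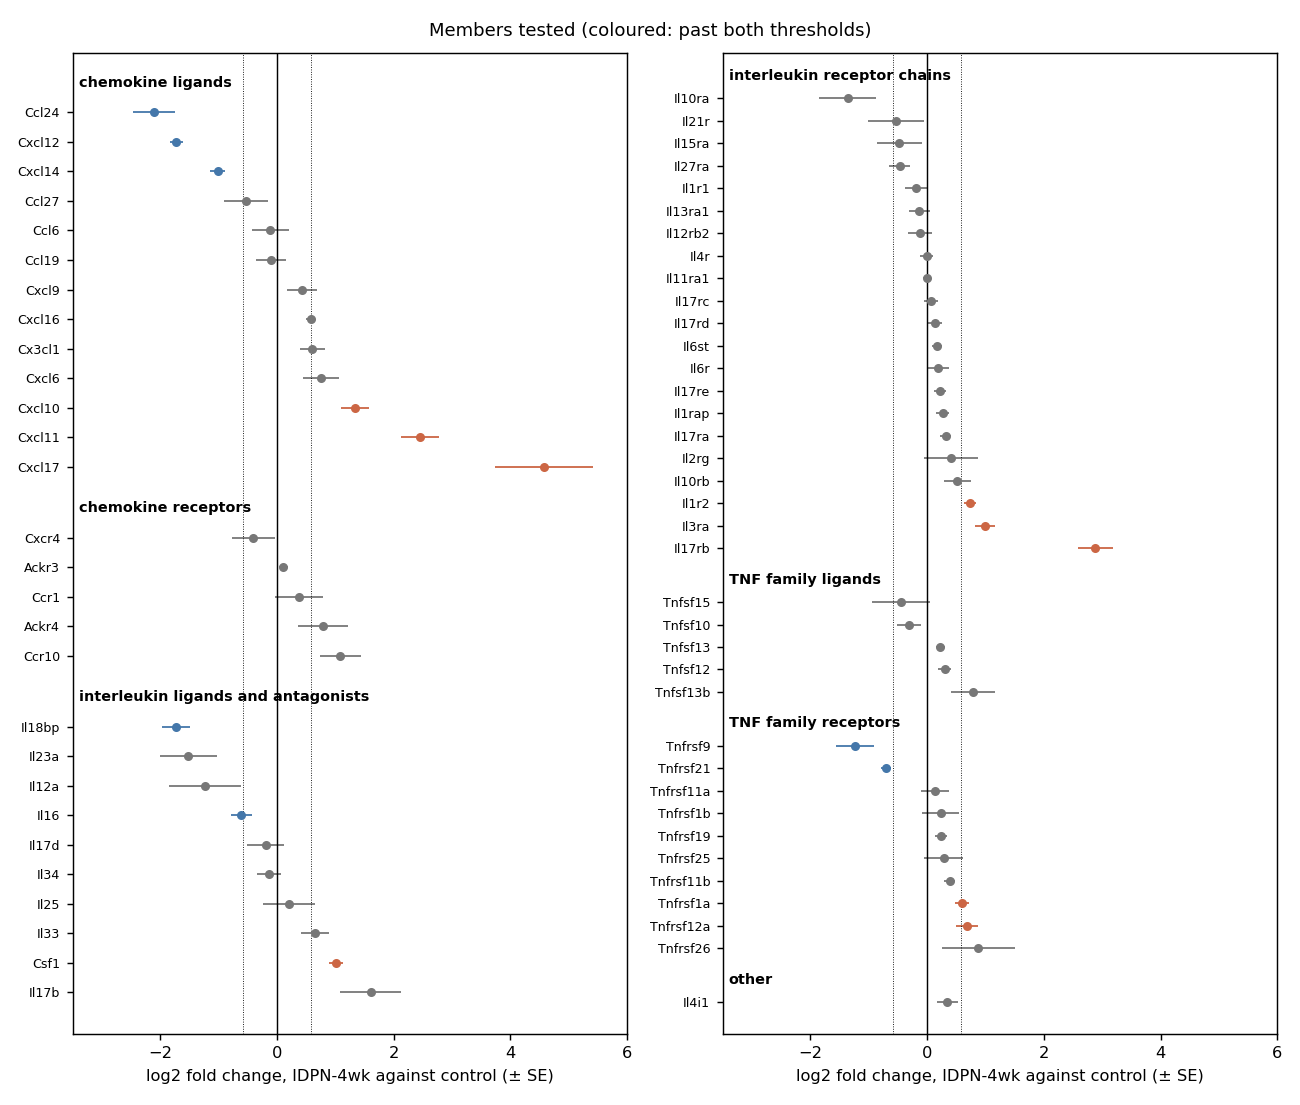
Log2-Fold change of IDPN-4wk against control (x axis, with SE as bars) of 65 members tested, by role, coloured when past both thresholds, with the fold threshold of 1.5 as dotted lines. Cxcl17 (4.57) and Il17rb (2.88) lie farthest to the right and Ccl24 (-2.11) farthest to the left, and most receptor chains lie between the dotted lines.

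Ligands and receptors were set side by side in 13 pairs with both sides tested. In no pair were both sides past both thresholds in edgeR. In 3 pairs both had an unadjusted p under 0.05 (Il33 with Il1rap, Il17b with Il17rb and Tnfsf12 with Tnfrsf12a), which 33.1% of single genes tested had. Il33 could not be paired with Il1rl1, which was under the filter. Il1rl1 had 1, 9 and 5 counts in control and 18, 1 and 2 in IDPN-4wk libraries. With DESeq2, both sides of 1 pair passed, Il17b with Il17rb.

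Signalling genes downstream of these receptors were described from separate lists. Of 28 NF-kB and TNF receptor signalling genes tested, Bcl3 was called higher (0.83, edgeR Padj 0.0215) and none lower, with a median of 0.14. Bcl3, an atypical inhibitor protein of NF-kB, was at 5.75, 5.87 and 6.09 CPM in control and at 11.6, 12.4 and 7.47 CPM in IDPN-4wk libraries. The feedback inhibitor Nfkbia (0.57) and the precursor Nfkb2 (0.54) had Padj 0.00299 and 0.0256 in edgeR under the fold threshold, and Tnfaip3, another feedback inhibitor, was at 9.28 and 6.67 CPM (-0.48, edgeR Padj 0.103). Of 10 IL-1 and Toll adaptors and inflammasome genes, Myd88, the common adaptor, was called higher (0.65, edgeR Padj 0.00385), and none was called lower. It was at 26.0, 28.2 and 22.1 CPM in control and at 44.4, 36.6 and 39.0 CPM in IDPN-4wk libraries.

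Among 21 gp130 cytokine and JAK-STAT3 genes, 1 was called lower and none higher in edgeR, 7 had an unadjusted p under 0.05 in either direction, a share close to the 33.1% of all genes, and the median was 0.20. Stat3 (0.52, edgeR Padj 0.00687) and Lifr (0.46, edgeR Padj 0.0416) were under the fold threshold, and the feedback inhibitor Socs3 had no overlap (0.91, edgeR Padj 0.0644). Of 7 TNF family members under other names, Eda, ectodysplasin, was called lower (-2.10, edgeR Padj 0.00902) and so was the receptor Relt (-0.95, edgeR Padj 0.000345). Cd40, a receptor of antigen-presenting cells, had no overlap and a higher mean, 1.25 against 2.70 CPM (1.10, edgeR Padj 0.0513). None of 7 other chemokine and colony stimulating factor genes was called in edgeR, at an unadjusted p under 0.05, or in DESeq2. Over the 5 lists, 2 genes were called higher, which became 8 with library size alone, 4 with upper quartile scaling, 0 without IDPN-4wk replicate 1, 1 without control replicate 3 or IDPN-4wk replicate 2 and 7 when IDPN-4wk replicate 3 was left out. In the fit of all libraries 3 were called lower. Of the 73 genes tested these were 2.74% higher and 4.11% lower, under the 3.09% and 6.62% of all genes. For higher calls this turned with the setting. The share lay above that of all genes with library size alone (8 of 73, against 5.31%) and upper quartile scaling (4 of 73, against 3.62%). It was also above without IDPN-4wk replicate 3 (7 of 74, against 3.34%), and under without IDPN-4wk replicate 1 (0 of 74, against 2.33%).

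Some genes under the filter had most or all of their counts in a single group. These were picked after their values were seen, and their ratios cover counting error only. Cxcl13, a chemokine that attracts B cells through Cxcr5, had 24, 3 and 17 counts in control and 2, 0 and 0 in IDPN-4wk libraries, a 24.5-fold lower total with a 95% counting interval from 6.38 to 208. Ltb, a lymphotoxin chain of the list of TNF family members under other names, had 27, 7 and 21 counts in control and 0 in each IDPN-4wk library, at least 20.4-fold lower when the exposed group is set to 3 counts in all, and 16.03-fold at the lower end of the exact 95% counting interval. Cxcl13 and Ltb are known together from lymphoid tissue. B cell markers were near 0 in both groups and all under the filter, as given above. The part of B cells in these counts was not tested. Il1rapl1, a neuronal member of the IL-1 receptor family, had 6, 1 and 12 counts against 0 in each exposed library, at least 7.04-fold lower on the same floor, with 5.19 as the lower end of the interval. Il23r had 7, 1 and 3 counts against 0, at least 4.08-fold lower on that floor, with a lower end of 2.79. Il7r had 3, 6 and 0 counts against 0, at least 3.34-fold, with a lower end of 2.19, and its groups overlapped.

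Tnfsf18, a costimulatory ligand, had 0 counts in each control and 12, 19 and 1 counts in IDPN-4wk libraries, at least 9.59-fold higher when the control group is set to 3 counts in all, with 7.36 as the lower end of the interval. Cxcr2, a neutrophil receptor, had 0, 1 and 1 counts in control and 11, 3 and 7 in IDPN-4wk libraries, a 9.45-fold ratio with an interval from 2.31 to 83.1. The neutrophil markers are given above, and their part in this ratio was not tested. Il2rb had 3, 3 and 3 counts in control and 11, 16 and 10 in IDPN-4wk libraries, a 3.70-fold ratio with an interval from 1.75 to 8.71. When edgeR was run with no filter, it called Cxcl13 and Il1rapl1 lower and Tnfsf18 higher. Leaving out a library also let some of these genes be tested. Cxcl13 was called lower without control replicate 2, IDPN-4wk replicate 1 or IDPN-4wk replicate 3. Tnfsf18 and Il2rb were called higher when IDPN-4wk replicate 3 was left out. In these fits each gene passed the filter through its higher group alone, so the calls follow in part from the filter. Most of the 57 members under the filter were lower still, with at most 10 counts in every library for 41 of them.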

How the data were processed

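Vestibular epithelium of 3 control and 3 IDPN-4wk rats was sequenced. The authors prepared libraries with SMART-seq2 from poly(A) RNA, a protocol that does not keep strand, mapped reads with STAR 2.5.3a to Rnor6.0 and estimated counts with RSEM on annotation Rnor6.0.92. The submitters' processing notes give RSEM 1.3.0, and another version is stated in the study's methods. The deposited values are expected counts per gene, estimated by the authors, and were whole numbers as deposited. RSEM divides reads among similar genes, so close chemokine paralogs are less certain.

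Groups come from the treatment label. The labels give all libraries the same batch, so the groups were compared within it. In the animal codes of the sample titles, all exposed rats share a number that no control has. What it marks is not stated, and it cannot be told apart from the treatment. The letters that end the codes (LF, NM and RF) recur in both groups. What they mark is not stated either, and they were not used to pair the rats. The p-values measure the spread between these animals. Libraries of a group were not copies: Pearson r of log2 (CPM + 1) was from 0.987 to 0.990 in the 6 pairs within groups, and the chi-square of counts per degree of freedom from 7.94 to 16.1.

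Low genes were removed with filterByExpr (min.count 10, min.total.count 15). Libraries were scaled with TMM (factors from 0.955 to 1.05), and 14352 genes were tested two-sided by quasi-likelihood in edgeR 4.0.16 (R 4.3.3). Calls needed an adjusted p under 0.05 and a fold over 1.5. Scripts were tested on simulated data. Counting intervals were exact (95%, scipy 1.17.1), and amplified reads without molecular identifiers are not independent molecules. Depth was from 13358678 to 18561991 counts. Start regions and gene overlaps came from RefSeq tables of build GRCr8, matched by symbol. Since the files use Rnor6.0, no other coordinates are given.

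Members, marker lists and pathway lists were chosen with earlier results of these data known. Described in full were the called members, the 3 tested members of each role class with the highest mean CPM, members over 1.5-fold apart without overlap whose adjusted p missed the threshold, ligand or receptor partners of called members, and Tnf, Il1b and Il6. Other genes were named after their values were seen. The marker genes Itgam, Cd79a, Pecam1 and Dct were not analysed here. The values of 1 called member and of 1 pathway gene are not reported here, but both are in the counts.

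Alternatives were library size alone, upper quartile and DESeq2 size factors as scaling, DESeq2 1.42.0 as the test, no filter (any gene with a count), a mean count of at least 10, glmTreat against a fold of 1.5, adjusted p alone, and leaving out each of the 6 libraries.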

Additional observations from a re-analysis of the deposited data

How the results depend on the processing

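Over 12 other fits of each of the 17 called members (scaling, test, filter and left-out libraries), 179 of 204 kept the call and the direction, 25 lost the call and none reversed, and 12 members kept their call in all 12. Calls lost included those of Il16, Tnfrsf9, Tnfrsf12a and Tnfrsf1a. Beside these fits, glmTreat kept 9 of the 17 calls and adjusted p alone kept 17. The count of members called higher was 14 with library size alone, 5 with glmTreat and from 7 to 15 when single libraries were left out. The count called lower was 4 with glmTreat and from 5 to 9 when single libraries were left out. Pathway genes called higher numbered 8 with library size alone, 4 with upper quartile scaling, 0 with glmTreat and 6 with adjusted p alone, and from 0 to 7 when single libraries were left out. Those called lower numbered 2 with glmTreat and 3 or 4 in every other fit. In the 20 other tested members that the naming rule took, 218 of 239 fits gave the same outcome, 14 gained a call (Cxcl16, Ccr10, Il17b and Il33) and 7 reversed, all in members with Padj over 0.6. Of tested members outside that rule, leaving out IDPN-4wk replicate 3 gave calls of Cx3cl1, Cxcl6 and Il27ra, and leaving out IDPN-4wk replicate 1 a call of Il10rb. Cx3cl1 was also called with library size alone and when control replicate 2 was left out. The log2-Fold change of Il11ra1 reversed to 0.105 with library size alone and to 0.0288 with upper quartile scaling, and ranged from -0.0298 to 0.0248 when single libraries were left out. In the same fits Il25 ranged from -0.0917 to 0.535 and Il34 from -0.344 to 0.0669. Il12a was under the filter of a mean count of at least 10. No paired analysis was run because the labels do not say that any rats belong together. The causes of these differences were not tested. Depth limits the 96 members without a test, for which a library with no count allows up to 0.216 CPM.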
